A study of Homo sapiens with 9 samples.

Results

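The general mRNA decay machinery was followed through 42 genes, taken by symbol from the transcript annotation deposited with the study, out of 50432 symbols listed there. They comprise the 5′-to-3′ exonucleases, the decapping factors, the deadenylases with their partners, and the RNA exosome with its helicases. They are listed by symbol and role, and the listing uses no threshold on a measured value. Of these genes, 41 had a locus in the gene table, and for 38 of them at least 80% of the isoform signal of the locus was their own. Those 38 are counted below by FPKM (fragments scaled to transcript length and to the number of mapped fragments). The other members were described by isoform signal or, for EXOSC6, not at all.

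The cells were of the human embryonic kidney line HEK293 Flp-In T-Rex, subline b-39, which carries a β-globin reporter with a premature stop codon (PTC39) at the Flp-In site in every group used here. The groups were SMG6/XRN1 depletion, UPF1/XRN1 depletion, XRN1 depletion and a control that received siRNA against EGFP. Each group was represented by 1 RNA-seq library of poly(A)+ RNA from a digitonin extract of the cytoplasm, so no difference had a replicate check, no p-value was computed, and every size describes these libraries. Another 4 libraries of RNA 5′ ends and 1 CAGE library of the 9 samples were not analysed here.

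Bulk mRNA decay in mammalian cells starts with shortening of the poly(A) tail by the PAN2-PAN3 and CCR4-NOT deadenylases. The body of the RNA is then degraded from the 5′ end by XRN1 after decapping by DCP2, or from the 3′ end by the exosome with the SKI helicase complex. Nonsense-mediated decay (NMD), which removes mRNAs on which translation ends early, feeds into the same enzymes: UPF1 is its central helicase, and SMG6 is an endonuclease that cuts the RNA near the stop codon and leaves a fragment for XRN1.

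The libraries held an estimated 34649697 (SMG6/XRN1), 35983050 (UPF1/XRN1), 32970733 (XRN1) and 31476860 (control) reads, from the value that 1 read had in the isoform signal. Intervals below are 95% intervals on these estimated reads and cover counting error only, not the assignment of reads to isoforms. Among the HEK293 markers listed for this check, VIM ranged over 360 to 380 FPKM, KRT8 over 190 to 232, KRT18 over 46.5 to 55.5 and NEFL over 31.3 to 57.3, while PAX2, LHX1 and NEFM were under 1 FPKM in all 4 libraries. The markers of blood, liver, fibroblast, muscle and glia that had a row were under 1 FPKM as well. The nuclear-retained RNAs NEAT1 (11.3, 19.0, 4.20 and 3.62 FPKM in the libraries labelled SMG6/XRN1, UPF1/XRN1, XRN1 and control) and PVT1 (43.5, 49.3, 22.6 and 6.05 FPKM) were higher in both co-depletions than in the control. MALAT1, another nuclear RNA, had 19.9, 24.3, 19.3 and 21.6 FPKM and was not lowest in the control. The part of these RNAs in the results was not tested. HBB, the gene of the reporter, stood at 355, 747, 257 and 139 FPKM in the same order.

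The targeted genes showed the depletions weakly or not at all at the level of the whole locus. XRN1, the cytoplasmic 5′-to-3′ exonuclease, had 10.1, 6.50 and 7.31 FPKM in the libraries labelled SMG6/XRN1, UPF1/XRN1 and XRN1, against 7.80 FPKM in the control. Its read ratio over the control was 0.894 (0.834 to 0.958) for XRN1, 1.13 (1.05 to 1.202) for SMG6/XRN1 and 1.005 (0.941 to 1.07) for UPF1/XRN1. SMG6 had 7.66 FPKM in the library labelled SMG6/XRN1, against 5.97 (UPF1/XRN1), 5.55 (XRN1) and 4.77 (control). By isoform signal SMG6 had 2857, against 4148 (UPF1/XRN1), 2908 (XRN1) and 2201 (control), with a read ratio over XRN1 of 0.982 (0.883 to 1.09). UPF1 had 8.59 FPKM in the library labelled UPF1/XRN1, higher than the 6.71 FPKM in the control. That was lower than the 11.4 and 11.6 FPKM in the libraries labelled SMG6/XRN1 and XRN1. The UPF1 read ratio of UPF1/XRN1 was 0.636 (0.591 to 0.684) over XRN1 and 1.10 (1.01 to 1.19) over the control. By FPKM, XRN1 was thus lower than in the control in the libraries labelled UPF1/XRN1 and XRN1 and higher in that labelled SMG6/XRN1. By estimated reads it was lower only in that labelled XRN1, with UPF1/XRN1 near the control. With the signal totals of the libraries made equal, all 3 were lower. The log2 changes over the control were then -0.30 (XRN1), -0.11 (SMG6/XRN1) and -0.14 (UPF1/XRN1). By FPKM and by signal as deposited, SMG6 and UPF1 were not lower than in the control in the libraries labelled as depleted of them. Equal totals were not applied to SMG6 and UPF1. Each direction given below is therefore between libraries as labelled.

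At XRN1 the mix of isoforms differed between the libraries. The annotated coding isoform with the highest signal (ENST00000392981) had an isoform signal of 1708, 1728 and 1246 in the libraries labelled SMG6/XRN1, UPF1/XRN1 and XRN1, against 3688 in the control. Its read ratio over the control was 0.463 (0.411 to 0.521), 0.469 (0.419 to 0.524) and 0.338 (0.296 to 0.385) in that order. Coding isoforms held 22.1%, 25.1% and 20.3% of the XRN1 signal in the 3 libraries labelled as depleted of XRN1, against 53.7% in the control. Isoforms with a splice junction that the reference lacks held 75.8%, 74.1% and 78.2%, against 43.6%. One of them (TCONS_00145813) had a signal of 1482, 1563, 686 and 233, and another (TCONS_00145819) had 763, 1252 and 181 and was listed at 0 in the control. Both were at least 2-fold higher in the co-depletion libraries than in the library labelled XRN1.

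**Figure D1:**
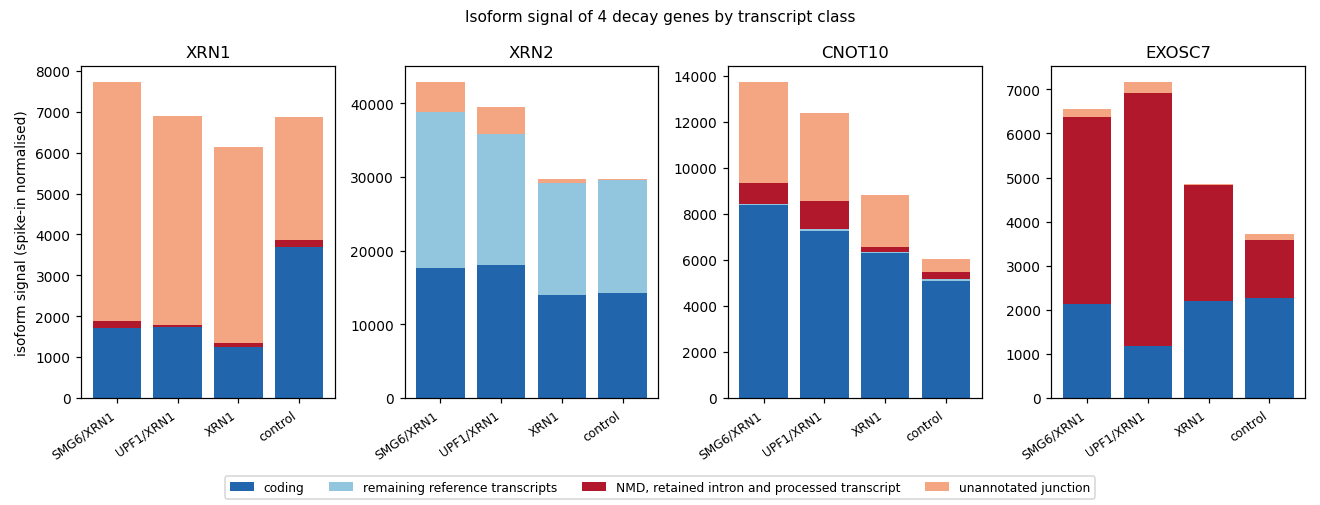
Isoform signal (vertical axis, spike-in normalised) of XRN1, XRN2, CNOT10 and EXOSC7 in the libraries labelled SMG6/XRN1, UPF1/XRN1, XRN1 and control, stacked by transcript class: coding, remaining reference transcripts, the 3 non-coding and NMD classes together, and isoforms with an unannotated junction. The coding part of XRN1 is 1246 to 1728 in the 3 libraries labelled as depleted of XRN1 and 3689 in the control, and at EXOSC7 the NMD, retained-intron and processed class is 4246, 5749, 2636 and 1304.

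XRN2, the nuclear relative of XRN1 that acts in transcription termination, had 83.1, 76.5, 61.3 and 62.2 FPKM in the libraries labelled SMG6/XRN1, UPF1/XRN1, XRN1 and control. Its read ratio over the library labelled XRN1 was 1.44 (1.397 to 1.48) for SMG6/XRN1 and 1.33 (1.29 to 1.37) for UPF1/XRN1, under the 1.5-fold size used here as the smaller step. A pair of unannotated-junction isoforms made up 9.57%, 9.47%, 1.96% and 0.556% of the XRN2 signal. The larger (TCONS_00124748) had a signal of 2796, 2483 and 460 and was listed at 0 in the control. The other (TCONS_00124749) had 1305, 1262, 125 and 166, a read ratio of 10.4 (7.17 to 15.6) for SMG6/XRN1 over XRN1 and 10.04 (6.94 to 15.02) for UPF1/XRN1 over XRN1. The annotated coding isoform of XRN2 stood at 17578, 18102, 13955 and 14193, and most of the remaining signal lay in reference transcripts without a GENCODE 29 match.

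As genes, the members differed little between the libraries. A change was log2 of the ratio of FPKM + 1, which understates low genes, and a call was 2-fold. No member was called higher or lower in XRN1 over control, where 4.11% of 12164 loci were called higher and 0.37% lower. None was called in SMG6/XRN1 over XRN1 (1.36% of loci higher, 0.173% lower) or in UPF1/XRN1 over XRN1 (2.52% higher, 0.534% lower). Against the control 1 of 38 members was called higher and 0 lower in each co-depletion, beside 9.3% and 0.263% of loci for SMG6/XRN1 and 10.2% and 0.575% for UPF1/XRN1. That member was CNOT10 both times. These comparisons share libraries, so they are not independent of each other.

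At 1.5-fold, 2 members were higher in XRN1 over control (13.4% of loci), 1 in SMG6/XRN1 over XRN1 (7.67%), 2 in UPF1/XRN1 over XRN1 (10%), 10 in SMG6/XRN1 over control (24.5%) and 6 in UPF1/XRN1 over control (23%). No member was 1.5-fold lower in any of the 5 comparisons, where 1.71%, 0.806%, 4.92%, 1.32% and 4.5% of loci were. The median log2 change of the 38 members was 0.12 in XRN1 over control, 0.25 in SMG6/XRN1 over XRN1, 0.19 in UPF1/XRN1 over XRN1, 0.33 in SMG6/XRN1 over control and 0.29 in UPF1/XRN1 over control. Over all loci it was 0.14, 0.12, 0.02, 0.25 and 0.15. Above 0 were 27, 33, 26, 36 and 28 of the 38 members in the same order, beside 68.2%, 67.5%, 52.1%, 75.3% and 62.2% of loci. Relative to the median of all loci, 17, 26, 26, 23 and 23 of the 38 members were higher.

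**Figure D2:**
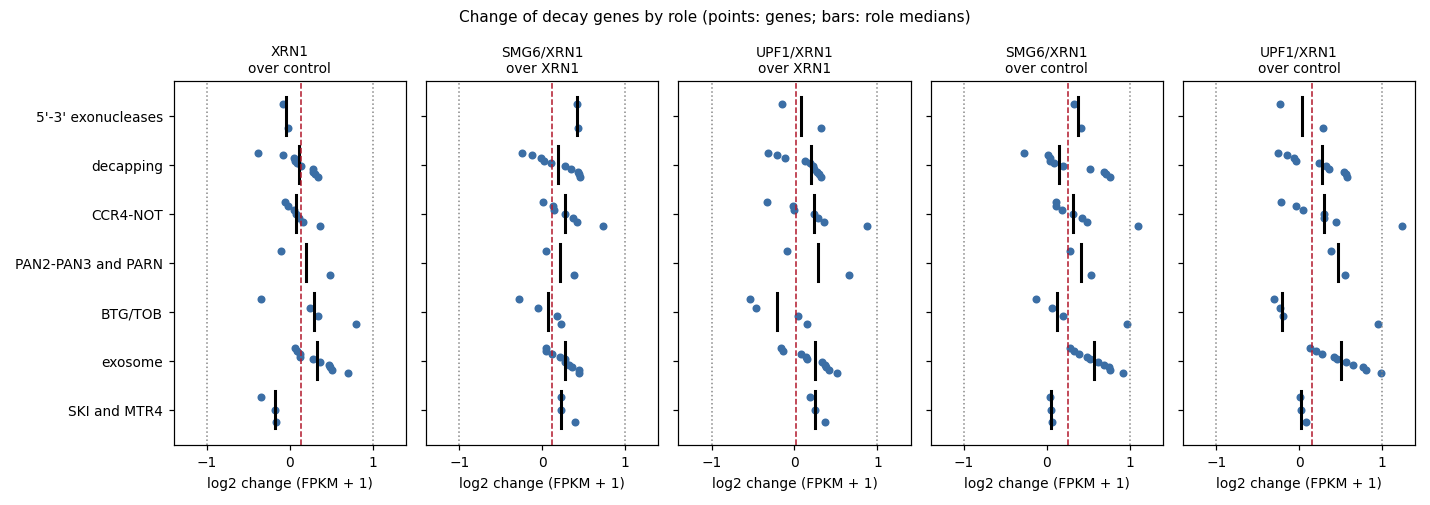
Log2 change of FPKM + 1 (horizontal axis) of the 38 members with their own locus in the 5 comparisons, by role (rows): points are genes, black bars role medians, the dashed line the median of all loci and dotted lines 2-fold. CNOT10 is the only point past 2-fold, in both co-depletions over control, and all 10 exosome genes lie above 0 there.

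The levels themselves spanned 3.41 to 187 FPKM as means over the 4 libraries, with a median of 24.9 beside 9.10 for all loci that passed the filter. LSM14A was the most abundant, followed by SKIV2L2 (113), CNOT7 (103), EXOSC9 (99.0) and EXOSC8 (89.4). DCPS was the lowest, below SKIV2L (5.62) and TOB2 (5.84). Within CCR4-NOT, whose catalytic subunits come as the exchangeable pairs CNOT6 with CNOT6L and CNOT7 with CNOT8, CNOT7 was above CNOT8 (33.0) and CNOT6 (23.3) above CNOT6L (7.16) in every library.

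**Figure D3:**
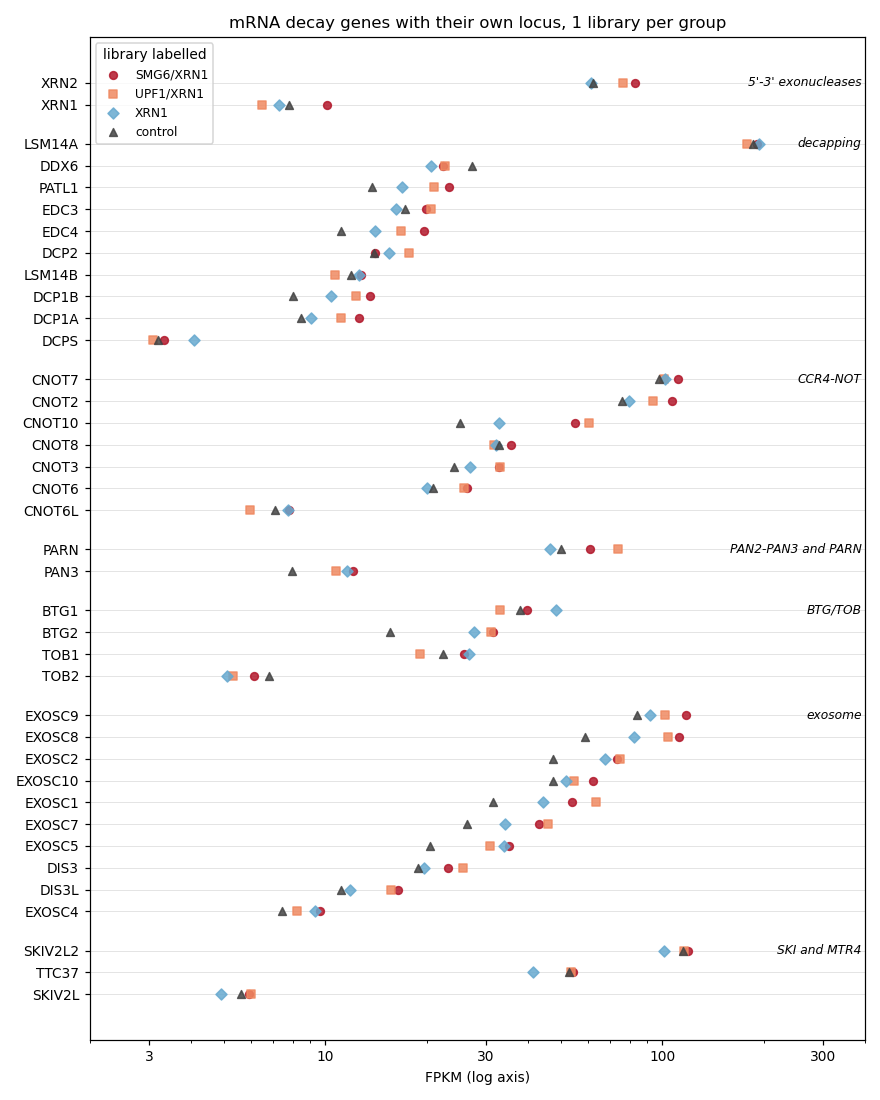
FPKM (horizontal log axis) of the 38 members with their own locus, grouped by role, with 1 symbol per library and the library labels in the legend. The symbols of a gene mostly lie close together; at CNOT10 the co-depletion libraries (55.0 and 60.6) stand apart from XRN1 (32.7) and control (25.1), and at BTG2 the control (15.6) stands below the other libraries.

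Among the 10 decapping genes no change reached 2-fold and 3 were 1.5-fold higher in SMG6/XRN1 over control, beside 24.5% of all loci. EDC4, the scaffold that brings DCP2 to its activators, had 19.7, 16.7, 14.05 and 11.2 FPKM in the libraries labelled SMG6/XRN1, UPF1/XRN1, XRN1 and control. A transcript classed as a retained intron (ENST00000573992) held 69.2%, 71.3%, 78.8% and 72.4% of the EDC4 isoform signal in that order. PATL1, a decapping activator, had 23.3, 21.0, 16.9 and 13.8 FPKM. DCP1B, a decapping coactivator, had 13.6, 12.3, 10.4 and 8.03 FPKM. All 3 were highest in the library labelled SMG6/XRN1 and lowest in the control, with read ratios over the control of 1.55 (1.42 to 1.69), 1.86 (1.76 to 1.97) and 1.83 (1.65 to 2.03) in SMG6/XRN1. The decapping enzyme DCP2 had 14.1, 17.7, 15.4 and 13.9 FPKM, and the scavenger enzyme DCPS, which hydrolyses the cap left by 3′-to-5′ decay, had 3.31, 3.07, 4.08 and 3.19 FPKM. DDX6, a helicase that represses translation and activates decapping, was the lowest of the group against the control, with 22.4, 22.6, 20.6 and 27.3 FPKM and log2 changes of -0.27, -0.26 and -0.39 in SMG6/XRN1, UPF1/XRN1 and XRN1. DCP1A, EDC3, LSM14A and LSM14B had log2 changes of at most 0.52 in size in any comparison.

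At DCP1B the added signal lay partly in a transcript with an early stop. GENCODE 29 classes ENST00000543381 as an NMD transcript, and its share of the gene's signal was 20.2% (17.7% to 22.8%) in SMG6/XRN1, 20.8% (18.4% to 23.4%) in UPF1/XRN1, 11.02% (8.83% to 13.5%) in XRN1 and 4.67% (3.12% to 6.67%) in the control. Its signal was 856, 801, 325 and 108. The read ratio over the library labelled XRN1 was 2.64 (2.03 to 3.46) for SMG6/XRN1, and for UPF1/XRN1 it was 2.47 (1.90 to 3.23). The transcript includes an exon of 126 bases, exon 4 of 10, that the coding transcript lacks, and the frame ends inside it after 119 of 617 codons, 1539 bases before the last exon junction. LSM14A, which encodes an mRNA-binding partner of DDX6, has an NMD transcript of the same kind (ENST00000589878). It includes an exon of 102 bases, exon 3 of 4, with a stop after 102 of 463 codons and 78 bases before the last junction. Its share was 0.629%, 1.15%, 0.423% and 0.202% of the LSM14A signal, and its signal was 473, 802, 306 and 149. The intervals of the shares in SMG6/XRN1 (0.518% to 0.757%) and XRN1 (0.333% to 0.529%) overlap. The read ratio over XRN1 was 1.53 (1.13 to 2.08) for SMG6/XRN1, and for UPF1/XRN1 it was 2.61 (2.001 to 3.44). Both exons are shown because they carry the stop: the bases run from the first base of the exon to the stop codon, which is in capitals, in GRCh38 (GENCODE 29), at chr12:1991206-1991246 on the minus strand for DCP1B and chr19:34195219-34195242 on the plus strand for LSM14A.
DCP1B: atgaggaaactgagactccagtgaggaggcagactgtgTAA
LSM14A: agtcgttggagtacagtggcgTGA

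CCR4-NOT held the only gene past 2-fold by FPKM + 1. CNOT10, a subunit that docks on the complex together with CNOT11, had 55.0, 60.6, 32.7 and 25.1 FPKM in the libraries labelled SMG6/XRN1, UPF1/XRN1, XRN1 and control. Its log2 change was 1.10 for SMG6/XRN1 over control and 1.24 for UPF1/XRN1 over control, 0.73 and 0.87 over XRN1, and 0.37 in XRN1 over control. By estimated reads the ratio over control was 2.27 (2.14 to 2.41) and 2.05 (1.93 to 2.18). Relative to the median of all loci SMG6/XRN1 over control stood at 0.85 and was no longer past 2-fold. By summed isoform signal at equal totals neither co-depletion was, at 0.90 for SMG6/XRN1 and 0.89 for UPF1/XRN1 over control. Coding isoforms of CNOT10 held 61.0%, 58.6%, 71.7% and 84.3% of its signal in the 4 libraries, while unannotated-junction isoforms held 31.9%, 30.9%, 25.4% and 9.75%. The 2 strongest of these (TCONS_00136211 and TCONS_00136200) had a signal of 2358, 2405, 1285 and 374, and of 1821, 1370, 943 and 162.

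CNOT10 also has an annotated NMD transcript (ENST00000435630) with a signal of 323, 271, 0.113 and 39.2, in which the library labelled XRN1 is under 1 read and the control is above it. Its read ratio over the control was 8.38 (4.32 to 18.2) for SMG6/XRN1, and for UPF1/XRN1 it was 7.05 (3.62 to 15.3).

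The deadenylase subunits of CCR4-NOT stayed under 1.5-fold. CNOT6 had 26.3, 25.9, 20.1 and 20.9 FPKM, CNOT6L had 7.79, 5.99, 7.76 and 7.11, CNOT7 had 111, 101, 102 and 97.9, and CNOT8 had 35.5, 31.7, 32.2 and 32.7 in the libraries labelled SMG6/XRN1, UPF1/XRN1, XRN1 and control. The subunits CNOT2 and CNOT3 had log2 changes of at most 0.49 and 0.44. Isoforms of CNOT6 differed in opposite directions in the library labelled SMG6/XRN1: the coding isoform ENST00000261951 had a signal of 12911 there, against 6321, 4154 and 3222 in UPF1/XRN1, XRN1 and control, while a unannotated-junction isoform (TCONS_00160661) had 4627, against 8738, 9785 and 10289. CNOT4, an E3 ubiquitin ligase that associates with the complex, had no locus in the gene table, and its isoform signal summed to 11116, 10308, 7443 and 5789. That is a read ratio over the control of 1.92 (1.802 to 2.05) for SMG6/XRN1, and for UPF1/XRN1 it was 1.78 (1.67 to 1.90). Coding isoforms held at least 99.6% of it in each library.

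The other deadenylases showed 1 gene past 1.5-fold, in UPF1/XRN1 over XRN1, where 10% of loci were 1.5-fold higher. PARN, a poly(A)-specific ribonuclease, had 61.1, 74.0, 46.5 and 50.1 FPKM in the libraries labelled SMG6/XRN1, UPF1/XRN1, XRN1 and control, a log2 change of 0.66 in UPF1/XRN1 over XRN1. By estimated reads that ratio was 1.33 (1.28 to 1.39), under 1.5-fold. PAN3, the regulatory subunit that recruits PAN2, had 12.05, 10.8, 11.6 and 7.99 FPKM. The locus that holds PAN2, the catalytic subunit, is shared, and PAN2 gave 12.8% of its signal, so its isoforms were summed instead: 7961, 7696, 6229 and 5563. The PAN2 read ratio over the control was 1.43 (1.34 to 1.53) for SMG6/XRN1, and for UPF1/XRN1 it was 1.38 (1.29 to 1.48).

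The BTG/TOB proteins, which tether CCR4-NOT to mRNAs and restrain proliferation, differed in unlike directions. BTG2 had 31.5, 31.0 and 27.7 FPKM in the libraries labelled SMG6/XRN1, UPF1/XRN1 and XRN1, against 15.6 FPKM in the control. Its log2 change over the control was 0.97, 0.95 and 0.79, and by estimated reads its ratio was 2.18 (2.05 to 2.32), 2.15 (2.02 to 2.28) and 1.81 (1.70 to 1.92). Over the library labelled XRN1 the co-depletions were at 0.18 and 0.16. BTG2 was the member with the highest change in XRN1 over control, and one coding isoform held at least 99.4% of its signal in each library. BTG1 had 39.6, 33.0, 48.3 and 37.95 FPKM, and its log2 changes over XRN1 were the lowest of the 38 members, -0.28 for SMG6/XRN1 and -0.54 for UPF1/XRN1. TOB1 had 25.7, 19.0, 26.6 and 22.4 FPKM, and TOB2 had 6.13, 5.30, 5.11 and 6.80 FPKM.

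All 10 exosome genes with their own locus were above 0 over the control in both co-depletions (75.3% and 62.2% of loci were), with a median log2 change of 0.57 for SMG6/XRN1 and 0.51 for UPF1/XRN1, and relative to the median of all loci 10 and 9 of them were. In XRN1 over control all 10 were above 0 (68.2% of loci) with a median of 0.32, and 6 of 10 relative to the median of all loci. Past 1.5-fold were 5 genes in SMG6/XRN1 over control (24.5% of loci), 4 in UPF1/XRN1 over control (23%) and 1 in XRN1 over control (13.4%). None was past it in SMG6/XRN1 over XRN1 (7.67% of loci higher) or in UPF1/XRN1 over XRN1 (10%). NEAT1 and PVT1 were lowest in the control as well, MALAT1 was not, and their part in this was not tested.

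EXOSC1, a cap subunit that binds RNA, had 53.9, 63.6, 44.3 and 31.5 FPKM in the libraries labelled SMG6/XRN1, UPF1/XRN1, XRN1 and control. EXOSC2, another cap subunit, had 73.5, 74.9, 67.8 and 47.4 FPKM. EXOSC5, EXOSC7 and EXOSC8 belong to the ring of inactive barrel subunits, and each had its lowest value in the control. EXOSC5 had 35.2, 30.7 and 33.9 against 20.51 FPKM, EXOSC7 had 43.0, 45.8 and 34.1 against 26.4, and EXOSC8 had 112, 104 and 82.4 against 58.9. The highest log2 changes were 0.92 for EXOSC8 in SMG6/XRN1 over control and 0.99 for EXOSC1 in UPF1/XRN1 over control. By estimated reads these ratios were past 2-fold, at 2.12 (2.02 to 2.22) and 2.19 (2.02 to 2.37). By summed isoform signal at equal totals the log2 changes were 0.80 and 0.99. EXOSC5 reached 0.70 in XRN1 over control and was near 0 in the co-depletions over XRN1 (0.05 and -0.14).

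DIS3, the main catalytic subunit, had 23.1, 25.6, 19.7 and 18.9 FPKM in the libraries labelled SMG6/XRN1, UPF1/XRN1, XRN1 and control. DIS3L, its cytoplasmic paralog, had 16.5, 15.7, 11.9 and 11.1 FPKM. EXOSC10, the nuclear exonuclease, had 62.5, 54.8, 51.6 and 47.4 FPKM. None of the 3 reached 1.5-fold in any comparison. EXOSC4 and EXOSC9 were also below that size throughout. EXOSC3 gave 24.7% of the signal of its locus, and its own isoforms summed to 8942, 8254, 7353 and 6979, a read ratio over the control of 1.28 (1.20 to 1.36) and 1.18 (1.11 to 1.26) in the co-depletions. EXOSC6 had no isoform signal and its listed locus is that of another gene.

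Several exosome genes carried transcripts with an early stop whose share of the gene was higher in the co-depletion libraries. EXOSC1 ENST00000471049 held 4.55% (3.55% to 5.73%) of the EXOSC1 signal in SMG6/XRN1, 9.91% (8.61% to 11.3%) in UPF1/XRN1, 2.56% (1.75% to 3.61%) in XRN1 and 1.75% (0.984% to 2.87%) in the control. Its signal was 290, 714, 125 and 59.3, with the library labelled UPF1/XRN1 above that labelled SMG6/XRN1, whose interval overlaps that of XRN1. EXOSC2 ENST00000430138 held 3.45% (2.95% to 4.01%), 3.56% (3.11% to 4.061%), 0.964% (0.704% to 1.29%) and 0.541% (0.315% to 0.864%) in the same order. EXOSC8 ENST00000490537 held 3.61% (3.09% to 4.18%), 3.19% (2.72% to 3.72%), 1.34% (0.983% to 1.795%) and 0.936% (0.595% to 1.402%). For EXOSC2 and EXOSC8 the intervals of the co-depletions overlap each other and lie above those of XRN1 and control. The transcripts named here were picked after their values were seen. The annotated NMD class of the exosome genes, with 4 isoforms, was not higher in the co-depletions. It held 1.18% (SMG6/XRN1), 0.849% (UPF1/XRN1), 1.19% (XRN1) and 1.69% (control) of the exosome signal, and was highest in the control.

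GENCODE 29 classes the EXOSC1 and EXOSC2 transcripts as processed transcripts and that of EXOSC8 as a retained intron, but read in the frame of the coding transcript each meets a stop upstream of further junctions. EXOSC1 includes exon 3 of 9, of 154 bases, with the stop after 60 of 195 codons and 459 bases before the last junction. Its model begins after the start codon, so the frame was taken from the coding transcript. EXOSC2 uses an exon 2 of 115 bases that runs on past the usual splice site, and the stop falls in the first 4 added bases, after 75 of 293 codons and 1120 bases before the last junction. EXOSC8 keeps an intron within an exon 4 of 1628 bases, and the stop lies after 71 of 276 codons and 1970 bases before the last junction. The stretches below end at the stop codon, in capitals, and lie at chr10:97445571-97445606 on the minus strand (EXOSC1), chr9:130695574-130695597 on the plus strand (EXOSC2, with 20 bases shared with the coding exon before the 4 added) and chr13:37003008-37003031 on the plus strand (EXOSC8) of GRCh38.
EXOSC1: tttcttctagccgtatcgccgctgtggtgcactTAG
EXOSC2: gtgaaagctttgaaaaccaggTGA
EXOSC8: gtaagtctaaatatgtcctatTGA

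EXOSC7 had a transcript of another kind, with its stop in the usual place. Its processed transcript ENST00000491476 had a signal of 3213 in SMG6/XRN1, 4246 in UPF1/XRN1, 1789 in XRN1 and 837 in the control, or 49.0% (46.5% to 51.6%), 59.3% (57.1% to 61.5%), 36.9% (34.2% to 39.7%) and 22.6% (19.95% to 25.3%) of the gene's signal. The 4 intervals do not overlap. The coding isoform of EXOSC7 was lowest in UPF1/XRN1, with a signal of 2139, 1173, 2206 and 2274. The transcript keeps the full frame of 291 codons and has its stop 54 bases before a further exon junction, so no early stop is involved.

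**Figure D4:**
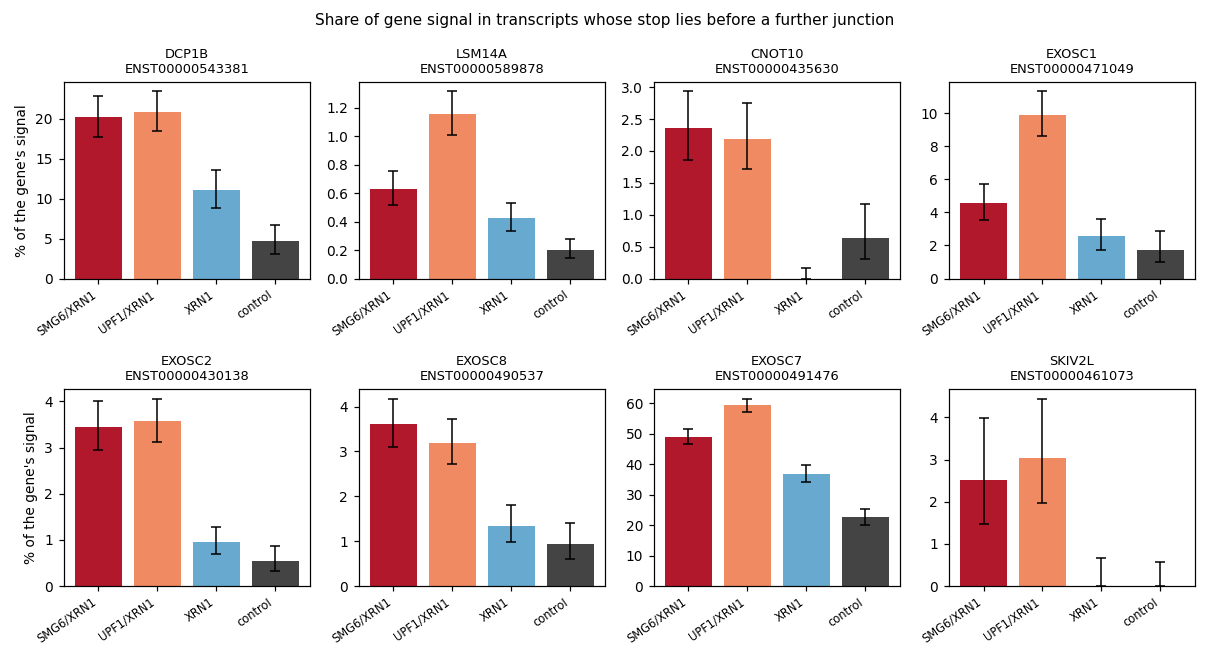
Share of each gene's isoform signal (vertical axis, percent) held by 1 transcript whose stop lies before a further exon junction, in the libraries labelled SMG6/XRN1, UPF1/XRN1, XRN1 and control; bars are shares of estimated reads and whiskers exact 95% intervals. The 8 transcripts were picked after their values were seen. At each the share is higher in both co-depletion libraries than in XRN1 and control. Intervals of SMG6/XRN1 and XRN1 overlap at LSM14A and EXOSC1, and SKIV2L is listed at 0 in XRN1 and control. The transcripts of CNOT7 and SKIV2L2 also have their stop before a further junction and are not drawn. Their shares were 0.231%, 0.412%, 0.106% and 0.0531% (CNOT7) and 70.6%, 69.2%, 72.6% and 70.9% (SKIV2L2) in the same order.

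The 2 helicase genes and the SKI scaffold gene stayed under 1.5-fold in all 5 comparisons. SKIV2L, the helicase of the cytoplasmic SKI complex, had 5.92, 6.02, 4.91 and 5.64 FPKM in the libraries labelled SMG6/XRN1, UPF1/XRN1, XRN1 and control. TTC37, the SKI scaffold, had 54.5, 53.5, 41.3 and 52.8 FPKM, and SKIV2L2 (MTR4), the nuclear exosome helicase, had 119, 116, 101 and 115 FPKM. All 3 were lowest in the library labelled XRN1. An NMD transcript of SKIV2L (ENST00000461073) that skips 1 exon of 191 bases, with its stop after 230 of 1246 codons, had a signal of 72.9 and 94.6 in the co-depletions and was listed at 0 in XRN1 and control. The NMD transcript of SKIV2L2 (ENST00000506750), which skips 2 exons with 205 bases in all, behaved differently. It held 70.6%, 69.2%, 72.6% and 70.9% of the gene's signal and was 25438, 23298, 21542 and 21471.

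Counted over all their isoforms, the members followed the rest of the transcriptome. Of 241 member isoforms with a mean of at least 10 estimated reads, 64 were at least 2-fold higher and 21 lower in SMG6/XRN1 over XRN1, beside 24.2% and 8.58% of 57130 isoforms. In UPF1/XRN1 over XRN1, 71 were higher and 19 lower, beside 26.3% and 10.9%. Over the control, 86 were higher and 17 lower in SMG6/XRN1 (34.5% and 7.94% of all isoforms), and 84 and 18 in UPF1/XRN1 (34.9% and 9.67%). In XRN1 over control 49 were higher and 21 lower (23.7% and 11.8%). Of 243 with at least 20 reads in the highest library, 43 from 22 genes were 2-fold higher in both co-depletions over XRN1, or 17.7%, beside 17.9% of all isoforms. Over the control it was 67 from 29 genes, or 27.6% beside 27%.

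By class, NMD transcripts of members numbered 16, of which 5 were higher in SMG6/XRN1 over XRN1 (39.4% of all NMD transcripts were) and 9 in UPF1/XRN1 over XRN1 (44.7%). Of 24 processed transcripts, 12 and 15 were higher, beside 30% and 33% of all processed transcripts. Coding isoforms gave 11 and 12 of 86 (16.4% and 17.1%), retained introns 5 and 4 of 13 (26.5% and 31.3%) and unannotated-junction isoforms 29 and 29 of 91 (31.9% and 34.9%). In SMG6/XRN1 and UPF1/XRN1 over control, NMD transcripts gave 8 and 8 (56.2% and 59.3% of all NMD transcripts), processed transcripts 12 and 13 (43.7% and 44.9%) and coding isoforms 15 and 18 (23.8% and 23.3%). Retained introns gave 6 and 5 there (41.2% and 43.3%), and unannotated-junction isoforms 43 and 39 (42.7% and 44%). With groups this small the shares are a description only, and isoforms of 1 gene share its reads.

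**Figure D5:**
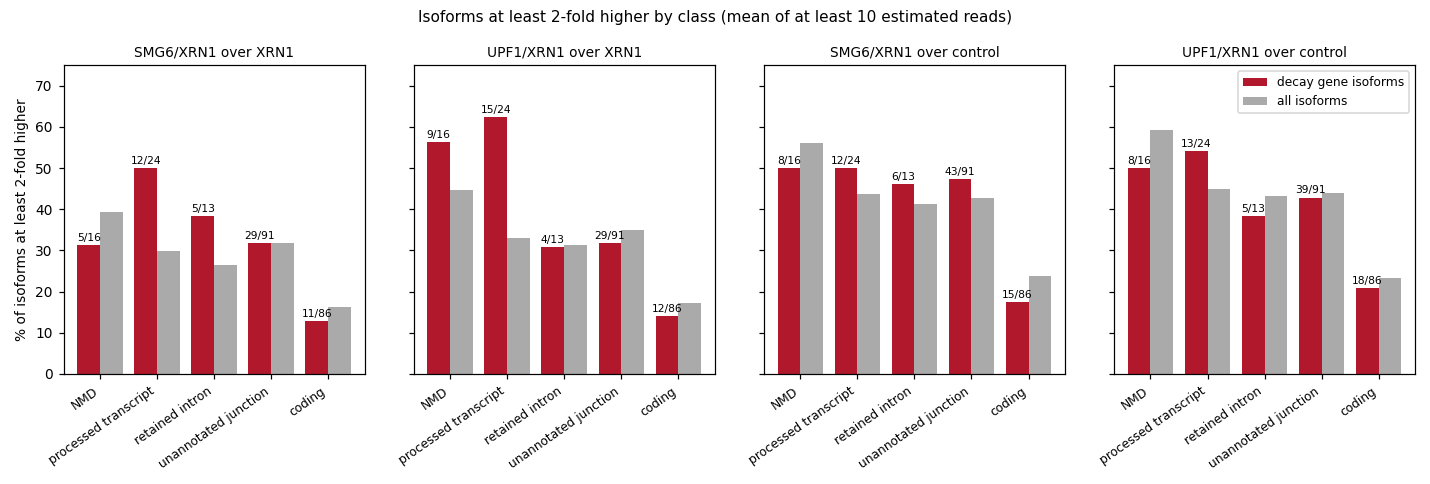
Percent of isoforms at least 2-fold higher (vertical axis) by transcript class, for isoforms of the members (red, with counts) and for all isoforms (grey), in the 4 comparisons with a co-depletion on top. Processed transcripts of the members stand at 12 and 15 of 24 over XRN1, and coding isoforms are lowest in every panel.

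GENCODE 29 lists at least 1 NMD transcript for 18 of the 42 genes (42.9%), beside 3963 of 11281 coding symbols at loci that pass the filter (35.1%). Isoforms with the authors' deposited NMD mark, which is true where both co-depletions are over 2 times the control, held 9.73%, 11.1%, 7.14% and 3.77% of the members' signal in the libraries labelled SMG6/XRN1, UPF1/XRN1, XRN1 and control. Over all isoforms they held 13.4%, 14.8%, 7.21% and 3.19%. The mark was made from these values, so the shares describe it and support nothing. Among the roles the marked share in the co-depletions was largest for BTG/TOB (32.9% and 37.3%), nearly all of it the coding isoform of BTG2. The annotated NMD class held 4.70%, 4.52%, 4.62% and 4.93% of the members' signal, highest in the control, and most of it was the SKIV2L2 transcript. Without SKIV2L2 it held 0.920%, 0.853%, 0.715% and 0.724%, and over all isoforms 3.59%, 3.98%, 2.86% and 2.51%.

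The further decay genes on a separate list, which holds the LSM ring, other CCR4-NOT subunits, poly(A)-binding proteins, miRNA effectors, RNA-binding recruiters and exosome cofactors, gave 49 that could be counted. None was past 2-fold in XRN1 over control, SMG6/XRN1 over XRN1 or UPF1/XRN1 over XRN1, beside 4.11%, 1.36% and 2.52% of loci called higher. Over the control 5 were higher and 0 lower in each co-depletion, beside 9.3% and 10.2% of loci called higher. Relative to the median of all loci, an alternative chosen after seeing the data, 1 was past 2-fold in SMG6/XRN1 over control and 4 in UPF1/XRN1 over control. Of the 12164 loci, 635 and 942 were called higher in the same way. The 5 were AGO3, AGO4, ZCCHC8, ZCCHC6 and DOM3Z, named after their values were seen. AGO4, a miRNA-binding Argonaute protein, had 14.4, 12.6, 8.71 and 4.59 FPKM, ZCCHC8, a subunit of the nuclear exosome targeting complex, had 27.3, 29.7, 20.7 and 12.7 FPKM, and ZCCHC6, a terminal uridylyltransferase, had 14.0, 13.8, 9.97 and 5.60 FPKM.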

How the data were processed

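RNA-seq libraries of 4 groups, with 1 library each, were grouped by their labels. Per the submitters' processing notes the genome was hg19 and the tools were Cufflinks 2.0.2, TopHat2 2.0.6, Bowtie 0.12.7 and CASAVA 1.8.2, with no role or order given. The authors deposited FPKM per assembled locus, and a signal per isoform that they normalised to a spike-in. The sources used here do not give the spike-in factor or the strand setting, which leaves overlapping genes uncertain.

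Changes were log2((a + 1)/(b + 1)) over 12164 loci with a mean of at least 1 FPKM. Estimated reads were the signal divided by the value of 1 read (3.72 to 4.25); 84.5% to 86.6% of low loci were whole within 0.01. Read ratios have exact conditional binomial intervals and shares exact Clopper-Pearson intervals, computed in Python 3.11.15 with scipy 1.17.1 and tested on simulated data. Values of 0 were treated as listed at 0. Isoform classes came from GENCODE 29, matched by transcript ID for 318 of 333 member transcripts; its build, GRCh38, is not that of the files and was used only for sequences.

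The members and lists were chosen with earlier results of these data known, and the transcript classes and printed sequences after their values were seen. Named genes were the targeted ones, members past 1.5-fold, the catalytic members and the highest and lowest of each role. Alternatives were other pseudocounts, filters, scalings, fold sizes and isoform classes. The sequence of the CNOT10 transcript is not reported here.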

Additional observations from a re-analysis of the deposited data

Results flagged for a closer look

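These 5 isoforms changed at least 2-fold in opposite directions in SMG6/XRN1 and UPF1/XRN1 over XRN1. The share of all isoforms with such opposite changes was not computed, so their number is not a result about the decay genes. With 1 library per group the differences between the co-depletions were not tested. CNOT2 TCONS_00041892 had log2 changes of -1.94 (SMG6/XRN1) and 1.22 (UPF1/XRN1), with a signal of 19.9, 186 and 79.2 in SMG6/XRN1, UPF1/XRN1 and XRN1. PAN2 TCONS_00047242 had -5.21 and 3.91, with a signal listed at 0 for the SMG6/XRN1 library and 557 for UPF1/XRN1, against 36.1 in XRN1, and PAN2 TCONS_00047246 had -1.10 and 1.13. EDC4 TCONS_00073161 had 1.71 and -5.13, and was listed at 0 in UPF1/XRN1. CNOT6L TCONS_00153381, an annotated coding isoform, had 1.47 and -1.75, with a signal of 687, 72.6, 247 and 375 in SMG6/XRN1, UPF1/XRN1, XRN1 and control.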

How the results depend on the processing

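A value counted as reversed only if it was past 2-fold and changed sign. Only CNOT10 over the control in the co-depletions could do so, and it did not. At equal totals CNOT10 was no longer past 2-fold (0.90 for SMG6/XRN1 and 0.89 for UPF1/XRN1). The absence of reversals therefore says nothing about the other members. Among 110 values of named members, 14 changed sign when centred on the median of all loci, 8 by summed isoform signal and 16 by summed signal at equal totals, and 0 with a pseudocount of 0.1 or another filter. Members past 2-fold in SMG6/XRN1 and UPF1/XRN1 over control numbered 2 and 2 with a pseudocount of 0.1. By summed signal they numbered 3 and 3, and at equal totals 0 and 0. Both summed-signal settings took in the 41 genes with isoform signal, not the 38 counted by FPKM. For the pseudocount and the summed signal the share of all loci called was not computed, so these counts have no background. Centring left 0 members past 2-fold in SMG6/XRN1 over control, where 635 of 12164 loci were called higher. At 1.5-fold the counts were 2, 1, 2, 10 and 6 in XRN1 over control, SMG6/XRN1 over XRN1, UPF1/XRN1 over XRN1, SMG6/XRN1 over control and UPF1/XRN1 over control. Centred medians were -0.024 in XRN1 over control, 0.13 in SMG6/XRN1 over XRN1, 0.080 in SMG6/XRN1 over control and 0.14 in UPF1/XRN1 over control. Over the 41 genes with isoform signal, the median in SMG6/XRN1 over control was 0.44 by summed signal and 0.16 at equal totals. That in XRN1 over control was 0.012 at equal totals. For the 38 members these medians were 0.43, 0.15 and 0.0053. Centring moved the share of all calls that are higher in SMG6/XRN1 over XRN1 to 78.2%, against 88.8%. With isoforms that match a reference transcript only, 34, 43, 51, 52 and 56 member isoforms were past 2-fold, against 70, 85, 90, 103 and 102. This setting leaves out the 91 unannotated-junction isoforms among the 241 counted, so fewer isoforms could be called. The share over all isoforms was not computed for it. Counting every isoform of the member loci, the marked share was 8.66%, 10.1%, 6.19% and 3.22% in SMG6/XRN1, UPF1/XRN1, XRN1 and control. In an alternative chosen after seeing the data, the further decay genes past 2-fold in SMG6/XRN1 over control numbered 1 when centred, against 5. Of the 12164 loci, 635 were called higher there when centred, against 1131. The causes were not tested. No paired analysis was possible because each group has 1 library, so no replicate could be left out either. Depth limits isoforms of few reads, whose intervals are wide.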
